A study of Mus musculus with 22 samples.

Results

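Mouse 8-cell embryos made by spindle transfer were profiled by RNA-seq in 2 groups of 2 libraries, 4 of the 22 libraries of a study of the histone methyltransferase SETD2 in oocytes and embryos. They were taken as the 4 columns of the table of 8-cell embryos whose names carry the Setd2 labels, and 9398 of the 22592 genes in that table reached 1 FPKM in at least 2 of the 4 libraries and were tested. FPKM, fragments scaled to transcript length in kilobases and to M (mega) of those mapped, are the values that the authors deposited. The KO group is labelled Setd2-/- and the Con group Setd2+/-. For both, donors were 8-week-old females given 5 IU of PMSG and then 5 IU of hCG 48 h later, and the spindle with its chromosomes was moved between oocytes of control mice and of mice labelled Setd2mNull by fusion with HVJ-E. Sperm was then injected and embryos were grown in M16 medium. The labels describe transfers both ways, from a Setd2mNull donor into an enucleated control oocyte and the reverse, and do not say which one the KO label stands for. Nor do they give the genotype of the sperm, how the oocytes lost Setd2 in this experiment, or the number of embryos per library, so p-values measure only the spread between the 2 libraries of a group, which may not come from separate experiments. The libraries are called KO-labelled and Con-labelled here because Setd2 RNA did not separate them.

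SETD2 places the trimethyl mark on lysine 36 of histone H3 over transcribed gene bodies, and in oocytes this mark guides de novo DNA methylation, including that of maternally methylated imprinting control regions. A spindle transfer joins the chromosomes of one oocyte, with the methylation they acquired during oocyte growth, to the cytoplasm of another, with its stored RNA and protein. At a maternally methylated control region the maternal copy is normally silenced on genes read from the paternal allele, and noncanonical imprints instead carry maternal H3K27me3 without DNA methylation. The 8-cell stage in the mouse follows genome activation and precedes the split into trophectoderm and inner cell mass.

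3 promoters of genes from maternally methylated imprinted domains are shown because these genes come up in the results, and CG dinucleotides, where DNA methylation sits, are in capitals. Each window runs from 250 bases before to 50 bases after a RefSeq start in GRCm38.p6 and was matched by symbol, so it may not lie in the methylated control region itself. Mcts2 lies at chr2:152686898-152687197 on the plus strand, Snrpn at chr7:60005150-60005449 on the minus strand (the most downstream of 4 listed starts) and Ndn at chr7:62348027-62348326 on the plus strand.
Mcts2: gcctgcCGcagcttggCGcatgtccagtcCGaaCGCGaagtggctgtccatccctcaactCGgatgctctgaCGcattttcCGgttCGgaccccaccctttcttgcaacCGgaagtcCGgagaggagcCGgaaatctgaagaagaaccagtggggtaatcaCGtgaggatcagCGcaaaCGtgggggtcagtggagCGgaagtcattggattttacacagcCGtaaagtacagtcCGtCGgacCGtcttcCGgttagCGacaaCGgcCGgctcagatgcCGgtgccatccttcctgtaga
Snrpn: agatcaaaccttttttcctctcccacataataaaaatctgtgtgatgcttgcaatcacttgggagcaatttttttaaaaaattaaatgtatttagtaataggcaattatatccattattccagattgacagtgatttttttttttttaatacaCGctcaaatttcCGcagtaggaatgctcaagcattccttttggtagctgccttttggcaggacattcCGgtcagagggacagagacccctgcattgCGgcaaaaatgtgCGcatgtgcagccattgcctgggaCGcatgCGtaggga
Ndn: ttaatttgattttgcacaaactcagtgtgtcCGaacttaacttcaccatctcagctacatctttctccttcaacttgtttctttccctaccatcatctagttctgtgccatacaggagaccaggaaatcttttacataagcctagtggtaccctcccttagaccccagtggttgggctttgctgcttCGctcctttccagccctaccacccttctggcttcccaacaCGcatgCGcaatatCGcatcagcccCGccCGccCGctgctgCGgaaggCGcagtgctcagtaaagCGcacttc
The windows hold 25 CG in Mcts2, 7 in Snrpn and 11 in Ndn. Of 32851 mouse promoters of this length, 94.6% held a CG and the median was 7, and 18.4%, 52.1% and 41.4% held at least as many as Mcts2, Snrpn and Ndn. A CG is its own reverse complement, so both strands are counted at once.

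The libraries were alike in size, with 8999 and 9021 genes at 1 FPKM or more in KO-labelled embryos and 9142 and 9211 in Con-labelled embryos. From the step between low values, an estimated 7.46 and 6.70 M fragments stood behind the KO-labelled libraries and 8.38 and 7.16 M behind the Con-labelled ones. Spearman correlations of log2(FPKM + 1) across tested genes were 0.948 between the KO-labelled libraries and 0.934 between the Con-labelled ones, against 0.914 to 0.935 between groups, so the first library of each group were about as alike as the Con-labelled pair. Con-labelled libraries stood apart from each other in sex-linked RNA. The Y-linked genes Ddx3y, an RNA helicase, and Eif2s3y, a translation factor subunit, were chosen after their values were seen. Ddx3y had 7.39 and 17.8 FPKM in KO-labelled libraries, against 0 and 30.3 FPKM in Con-labelled libraries. Eif2s3y had 7.89 and 23.4 FPKM in KO-labelled libraries, against 0 and 25.2 FPKM in Con-labelled libraries. Con replicate 1 thus had neither Y-linked RNA, while Con replicate 2 had the most of both. Over 314 tested X-linked genes, the median deviation from each gene's mean of the 4 libraries was 0.16 and -0.19 on the log2 scale in KO-labelled embryos, against 0.34 and -0.30 in Con-labelled embryos. Sex-linked RNA thus differed more between the Con-labelled libraries than between the KO-labelled ones, and its part in the results was not tested. None of 14 cumulus and granulosa markers, 7 sperm markers or 6 blood and fibroblast markers passed the filter. The summed level of the cumulus and granulosa markers was 0.84 and 2.66 FPKM in KO-labelled libraries, against 0.18 and 0.18 FPKM in Con-labelled libraries, and 6 of the 14, among them the follicle-stimulating hormone receptor gene Fshr, were listed at 0 in all 4. The 8-cell and morula factors Klf5 and Gata3 were present in every library at 114 FPKM or more.

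**Figure D1:**
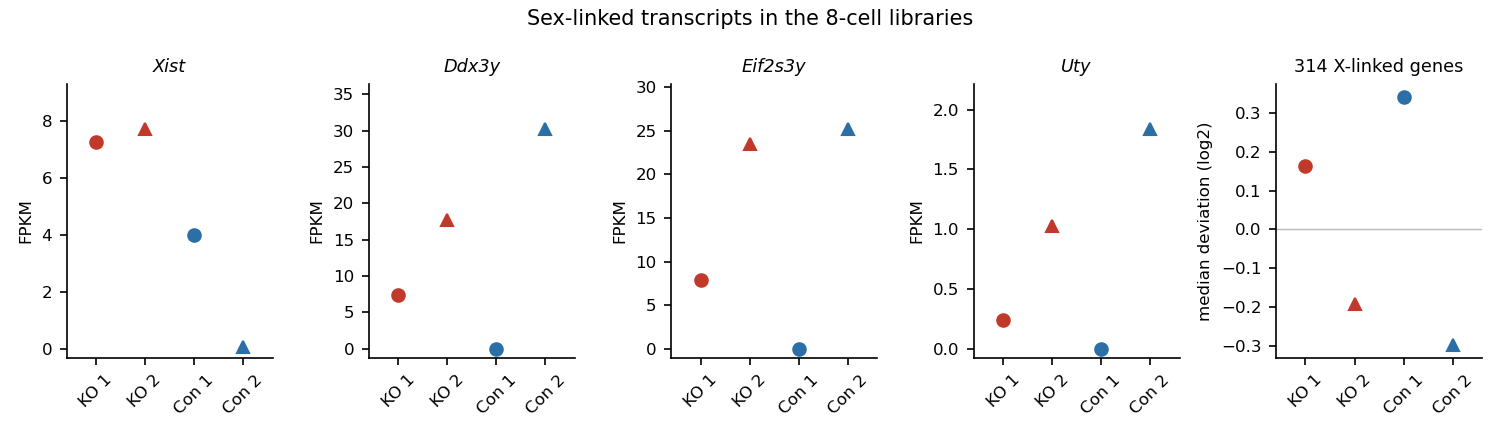
Levels in each library of Xist, 3 Y-linked genes (FPKM) and the median deviation of 314 X-linked genes from their mean over libraries (log2); KO-labelled libraries are red, Con-labelled libraries blue, circles replicate 1 and triangles replicate 2. Con replicate 1 was listed at 0 for Ddx3y and Con replicate 2 had 0.0696 FPKM of Xist.

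Setd2 itself had 15.4 and 18.1 FPKM in KO-labelled embryos, against 18.2 and 17.1 FPKM in Con-labelled embryos. The groups overlapped, and the log2 change was -0.08 ± 0.27 (SE) with an adjusted p of 0.934 by limma. In full-grown oocytes and zygotes of the same study, fitted within their own table, the gene was lower in the knockout. It was not called lower in knockout growing oocytes. Full-grown oocytes had 0.968 and 0.926 FPKM of Setd2 in the knockout, against 4.75 and 4.35 FPKM in controls (log2 change -1.51, adjusted p = 0.0102 by limma), and zygotes had 1.30 and 1.73 FPKM, against 12.1 and 8.85 FPKM (log2 change -2.18, adjusted p = 0.000208 by limma). The RNA level of the whole gene in 8-cell embryos therefore does not check the KO label, nor does it show which allele or which exons the RNA came from.

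No gene passed an adjusted p of 0.05 in the limma test of the 9398 genes, so the share called was 0% in each direction. At an unadjusted p under 0.05 there were 486 genes higher in KO-labelled embryos (5.17%) and 757 lower (8.05%). An exact permutation test of 2 libraries against 2 cannot go below p = 0.333. Groups are therefore described by whether both KO-labelled libraries lay on the same side of both Con-labelled ones. Among all tested genes this held upward for 1760 (18.7%) and downward for 2570 (27.3%), with a median log2 change of -0.07. Counts of tested members are read against those shares. Counts over all measured members of a list, tested or not, are read against the 11.3% higher and 14.8% lower of all 22592 genes in the table. In both, "higher" or "lower" means only that the 2 groups did not overlap. Genes at 0 in every library count as overlapping, so the shares of all 22592 genes are a low yardstick for lists with few such genes.

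Genes read from the paternal allele of domains with a maternally methylated control region stood higher in KO-labelled embryos. Of the 24 measured genes of this list, 14 were higher in both KO-labelled libraries and 0 were lower (58.3% and 0%), against 11.3% and 14.8% of all 22592 genes in the table. Only 1 of the 24 was at 0 in all 4 libraries, so those shares are a low yardstick here. At a mean of 1 FPKM or more, 6 of 9 were higher and 0 lower, against 18.6% and 27.6% of 9223 genes. The median log2 change of the 12 tested members was 0.69, or 0.39 without KO replicate 2, and 4 of these 12 passed the filter only through the KO-labelled libraries. The list's median deviation per library was 0.17 and 0.64 on the log2 scale in KO-labelled embryos, against -0.41 and -0.32 in Con-labelled embryos. Snrpn and Snurf, of the same transcript, are held as separate members in these counts and in the median. None of the members passed the test.

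Snrpn, which encodes a splicing protein and whose promoter is printed above, had 268 and 418 FPKM in KO-labelled embryos, against 181 and 234 FPKM in Con-labelled embryos (log2 change 0.70, adjusted p = 0.328 by limma). Its upstream reading frame Snurf, on the same transcript and so not separate evidence, had 15.9 and 24.8 FPKM, against 10.8 and 13.9 FPKM. Both KO-labelled libraries were above both Con-labelled ones for each. Ndn, which encodes necdin, a growth suppressor of the same domain, had 1.47 and 1.84 FPKM in KO-labelled embryos, against 0.327 and 0 FPKM in Con-labelled embryos, levels that rest on few fragments.

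The largest log2 change among tested members, on the log2(FPKM + 1) scale, was that of Mcts2, an intronless copy of the translation re-initiation factor gene Mcts1 within the H13 gene. It had 127 and 152 FPKM in KO-labelled embryos, against 56.4 and 44.5 FPKM in Con-labelled embryos (2.76-fold, log2 change 1.45 ± 0.22 (SE), adjusted p = 0.127 by limma). Mcts1, the X-linked parent gene whose reads may be shared with the copy, had 98.2 and 56.0 FPKM, against 132 and 41.0 FPKM, and overlapped between groups. The host gene H13, which is read in part from the maternal allele, had 9.37 and 12.7 FPKM in KO-labelled embryos, against 9.64 and 17.5 FPKM in Con-labelled embryos. Mcts2 was the member that also ranked among the 12 genes with the smallest p in the upward direction under the naming rule given below.

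Impact, which dampens the amino acid stress kinase GCN2, had 75.7 and 113 FPKM in KO-labelled embryos, against 41.6 and 61.7 FPKM in Con-labelled embryos (log2 change 0.85, adjusted p = 0.312 by limma). Inpp5f, a phosphoinositide phosphatase with an imprinted short variant that gene-level FPKM do not separate, had 6.29 and 5.12 FPKM, against 2.19 and 2.62 FPKM. Nespas, the antisense RNA of the Gnas domain, had 1.10 and 2.17 FPKM in KO-labelled embryos, against 0.348 and 0.135 FPKM in Con-labelled embryos; the labels do not say that counting used strand. Mest, a hydrolase gene, had 1.28 and 2.45 FPKM, against 0.652 and 0.835 FPKM, and Usp29, a deubiquitinase gene of the Peg3 domain, had 1.26 and 1.23 FPKM, against 0.899 and 0.574 FPKM. For all 5 the groups did not overlap, and for Mest and Usp29 all values lay near 1 FPKM. Below the filter, the transcription factor gene Plagl1 had 0.394 and 0.848 FPKM in KO-labelled embryos, against 0 and 0.109 FPKM in Con-labelled embryos. The noncoding RNA Kcnq1ot1 had 0.455 and 0.645 FPKM, against 0.0869 and 0.232 FPKM, and Zdbf2 had 0.891 and 1.96 FPKM, against 0.403 and 0.123 FPKM. Nnat and Gpr1 were listed at 0 in both Con-labelled libraries and had 0.0948 to 0.573 FPKM in KO-labelled ones.

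Other members of the list overlapped. Peg3, a zinc finger gene, had 0.484 and 0.576 FPKM in KO-labelled embryos, against 0.659 and 0.432 FPKM in Con-labelled embryos. Sgce had 6.22 and 5.55 FPKM, against 4.68 and 8.51 FPKM, Zrsr1 had 2.41 and 4.52 FPKM, against 2.54 and 1.80 FPKM, and Mkrn3 had 2.10 and 0.252 FPKM, against 3.54 and 0.942 FPKM. Airn was listed at 0 in all 4 libraries, Peg12 had 1.55 FPKM in KO replicate 1 and was listed at 0 in the others, and Magel2, Peg10, Nap1l5 and Peg13 had 0.175 FPKM or less everywhere.

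**Figure D2:**
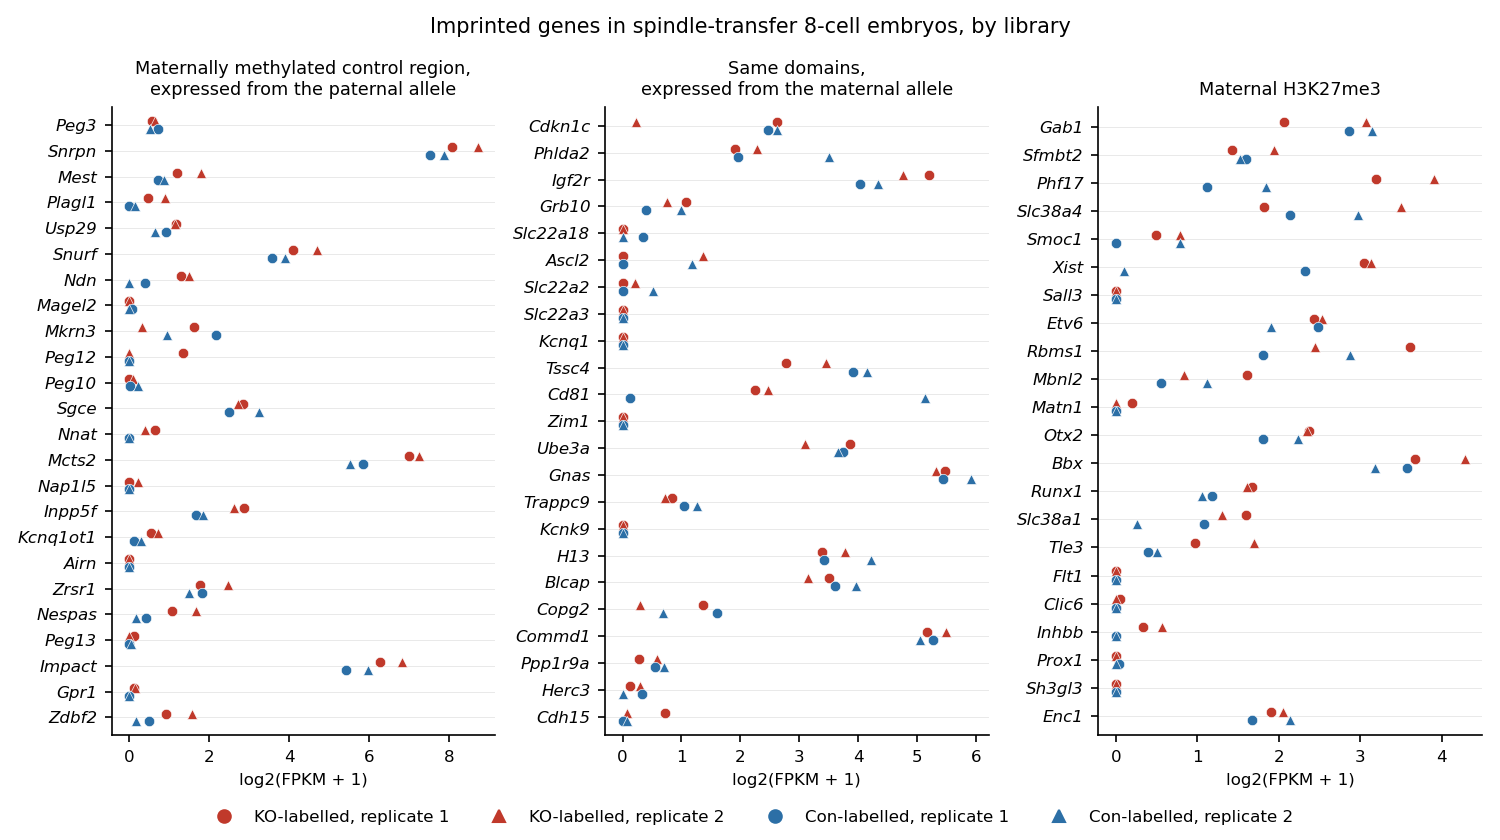
Level of every measured imprinted gene in each of the 4 libraries on a log2(FPKM + 1) axis; KO-labelled libraries are red and drawn above the blue Con-labelled ones, circles are replicate 1 and triangles replicate 2. In the left panel 14 of 24 genes have both red points to the right of both blue points and 0 the reverse; in the middle panel these numbers are 2 and 3 of 23, and in the right panel 8 and 0 of 22.

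Genes read from the maternal allele in such domains did not share this direction. Of 23 measured, 2 were higher and 3 lower in KO-labelled embryos (8.70% and 13.0%), near the 11.3% and 14.8% of all 22592 genes. The median log2 change of the 13 tested was -0.28, or -0.041 without Con replicate 2 and -0.52 without Con replicate 1. Igf2r, the receptor that clears insulin-like growth factor 2, had 35.5 and 25.9 FPKM in KO-labelled embryos, against 15.2 and 19.2 FPKM in Con-labelled embryos (log2 change 0.79, adjusted p = 0.324 by limma). The antisense RNA of its domain, Airn, was at 0. Tssc4, in the Kcnq1ot1 domain, had 5.83 and 9.99 FPKM in KO-labelled embryos, against 14.1 and 16.8 FPKM in Con-labelled embryos (log2 change -0.92, adjusted p = 0.334 by limma). Its neighbours in that domain overlapped. The growth inhibitor gene Cdkn1c had 5.15 and 0.174 FPKM in KO-labelled embryos, against 4.54 and 5.12 FPKM in Con-labelled embryos, Phlda2 had 2.73 and 3.87 FPKM, against 2.88 and 10.3 FPKM, and Cd81 had 3.73 and 4.50 FPKM, against 0.0901 and 34.1 FPKM. Blcap was lower with 10.3 and 7.88 FPKM, against 11.2 and 14.5 FPKM. The G protein gene Gnas overlapped at 43.5 and 38.8 FPKM in KO-labelled embryos, against 42.3 and 59.2 FPKM in Con-labelled embryos, as did the ubiquitin ligase gene Ube3a at 13.5 and 7.54 FPKM, against 12.4 and 11.6 FPKM. Of 9 measured genes from domains with a paternally methylated control region, such as H19 and Dlk1, none passed the filter, and the highest value was 0.613 FPKM, of Rian in a Con-labelled library.

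Genes imprinted by maternal H3K27me3 had 8 of 22 measured members higher in KO-labelled embryos and 0 lower (36.4% and 0%). Of the 13 tested, 6 were higher and none lower (46.2% and 0%), against 18.7% and 27.3% of all tested genes. Their median log2 change was 0.38, or 0.15 without Con replicate 1. The largest difference was in Phf17, also called Jade1, a subunit of a histone H4 acetyltransferase complex, which had 8.18 and 14.0 FPKM in KO-labelled embryos, against 1.17 and 2.59 FPKM in Con-labelled embryos (5.90-fold, log2 change 2.07 ± 0.43 (SE), adjusted p = 0.187 by limma). Xist, the RNA that coats the silenced X chromosome, had 7.25 and 7.73 FPKM in KO-labelled embryos, against 4.0 and 0.0696 FPKM in Con-labelled embryos (log2 change 1.88, adjusted p = 0.328 by limma; 0.76 without Con replicate 2). Its lowest value was in Con replicate 2, which had the most Y-linked RNA, and its second lowest in Con replicate 1, which had none. The transcription factor genes Bbx, with 11.7 and 18.4 FPKM against 10.9 and 8.10 FPKM, Runx1, with 2.19 and 2.06 FPKM against 1.27 and 1.09 FPKM, and Otx2, with 4.19 and 4.08 FPKM against 2.49 and 3.72 FPKM, were higher in the KO-labelled embryos by smaller margins. Gab1, Sfmbt2 and Slc38a4 were among the members that overlapped. The adaptor gene Gab1 had 3.17 and 7.37 FPKM in KO-labelled embryos, against 6.26 and 7.80 FPKM in Con-labelled embryos, Sfmbt2 had 1.68 and 2.83 FPKM, against 2.03 and 1.88 FPKM, and the amino acid transporter gene Slc38a4 had 2.53 and 10.3 FPKM, against 3.40 and 6.85 FPKM.

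The 12 genes with the smallest p in each direction were taken by the naming rule given below. Those in the upward direction included genes of iron storage, histone H2A and chromatin. All had an adjusted p of 0.112 or more by limma. Ftl1, the ferritin light chain that stores iron, had 715 and 719 FPKM in KO-labelled embryos, against 220 and 254 FPKM in Con-labelled embryos (3.03-fold, log2 change 1.60 ± 0.17 (SE), adjusted p = 0.112 by limma). Mouse ferritin genes have near-identical copies, so its reads may be shared. Kdm6b, a demethylase of H3K27me3, had 104 and 97.4 FPKM in KO-labelled embryos, against 34.4 and 38.3 FPKM in Con-labelled embryos (2.78-fold, log2 change 1.45 ± 0.21 (SE), adjusted p = 0.127 by limma). Baiap2l1, which links membranes to actin, had 41.2 and 36.7 FPKM, against 8.43 and 6.89 FPKM, and Crip1, a small LIM-domain protein gene, had 71.1 and 83.5 FPKM, against 25.7 and 20.3 FPKM. Rn45s, the precursor of ribosomal RNA, had 1129 and 1086 FPKM in KO-labelled libraries, against 389 and 494 FPKM in Con-labelled libraries and its part in other results was not tested.

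Among the 12 genes with the smallest p downward, Omt2a, an oocyte-specific transcript, was first. It had 1.14 and 0.324 FPKM in KO-labelled embryos, against 21.7 and 24.5 FPKM in Con-labelled embryos (log2 change -3.84 ± 0.38 (SE), adjusted p = 0.112 by limma). Its paralog Omt2b, which may share reads with it, had 3.86 and 0.625 FPKM, against 17.3 and 27.1 FPKM. Sap30, a subunit of the Sin3 histone deacetylase complex, had 47.5 and 46.9 FPKM in KO-labelled embryos, against 160 and 138 FPKM in Con-labelled embryos (log2 change -1.64, adjusted p = 0.127 by limma). Ifitm2, an interferon-induced membrane protein gene, had 34.4 and 22.6 FPKM, against 101 and 142 FPKM. The Wnt effector gene Tcf7l2 had 1.11 and 0.364 FPKM in KO-labelled embryos, against 7.25 and 7.11 FPKM in Con-labelled embryos, and the ATP-gated channel gene P2rx7 had 0.449 and 1.62 FPKM, against 9.13 and 20.6 FPKM. Steap1, a metalloreductase family gene, had 1.44 and 0.584 FPKM, against 11.2 and 8.86 FPKM, and Vill, a villin-like gene, had 0.832 and 1.17 FPKM, against 9.33 and 7.74 FPKM. The mitochondrial unfoldase gene Clpx had 95.8 and 88.9 FPKM in KO-labelled embryos, against 201 and 183 FPKM in Con-labelled embryos, with a log2 change of -1.05, and Cdv3 had 105 and 109 FPKM, against 208 and 221 FPKM. Btg3, an antiproliferative gene, had under 0.01 FPKM in both KO-labelled libraries, against 4.02 and 9.56 FPKM in Con-labelled libraries. The small Cajal body RNA Scarna13 was listed at 0 in both KO-labelled libraries, against 4.55 and 8.83 FPKM in Con-labelled ones.

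**Figure D3:**
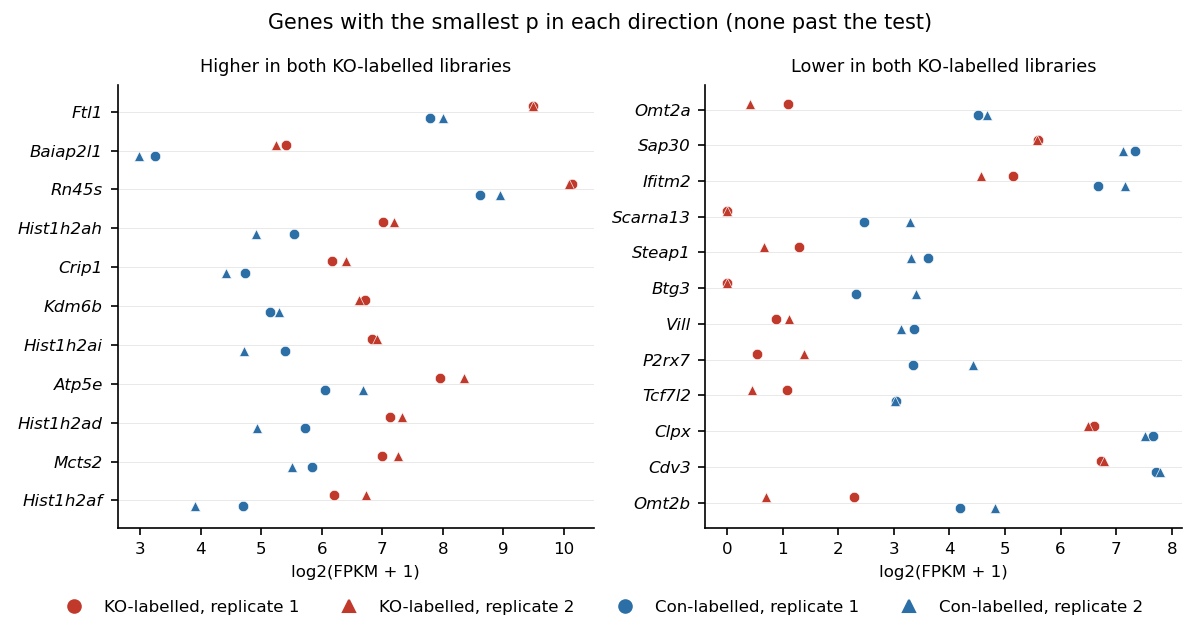
Level in each library, on a log2(FPKM + 1) axis, of the reported genes among the 12 with the smallest p in each direction that average 5 FPKM or more where they are higher; red points are KO-labelled and blue points Con-labelled libraries, circles replicate 1 and triangles replicate 2. Omt2a has 1.14 and 0.324 FPKM in KO-labelled libraries, against 21.7 and 24.5 FPKM in Con-labelled ones, and no gene shown passed the test.

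Most histone H2A genes of the replication-dependent clusters were higher in KO-labelled embryos. Of 12 tested H2A symbols, 10 were higher in KO-labelled embryos and 0 lower (83.3% and 0%), against 18.7% and 27.3% of all tested genes. Their median log2 change was 1.46. Their summed level was 795 and 816 FPKM in KO-labelled libraries, against 296 and 189 FPKM in Con-labelled libraries. Hist1h2ah had 128 and 145 FPKM, against 45.3 and 29.1 FPKM (log2 change 1.87, adjusted p = 0.127 by limma), with similar values for Hist1h2ad, Hist1h2ai and Hist1h2af. Of 12 H2B symbols, 0 were higher, 5 lower and 7 overlapping (0% higher and 41.7% lower). Their median deviation per library was -0.35 and -0.60 in KO-labelled embryos, against -0.09 and 0.94 in Con-labelled embryos. Their sum was 30.2 and 20.9 FPKM in KO-labelled libraries, against 52.6 and 155 FPKM in Con-labelled libraries. Most of the second Con-labelled sum was Hist1h2bc at 94.5 FPKM, a symbol singled out after its values were seen. H3 symbols were 2 higher and 2 lower of 9 tested (22.2% each), and H4 symbols 1 higher and 3 lower of 9 (11.1% and 33.3%). These shares lay near those of all tested genes. The genes of a cluster are near-identical copies whose reads can be split between them, and their RNAs mostly lack poly(A) tails, so single symbols are uncertain. The variant gene H2afx, whose product marks DNA breaks, had 162 and 223 FPKM in KO-labelled embryos, against 354 and 344 FPKM in Con-labelled embryos (log2 change -0.87, adjusted p = 0.229 by limma).

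In the pluripotency list, 4 of 20 tested genes were higher and 6 lower in KO-labelled embryos, shares near those of all genes, with a median log2 change of -0.06, or -0.22 without Con replicate 2. Nanog, which maintains the naive state, had 24.4 and 22.6 FPKM in KO-labelled embryos, against 132 and 52.2 FPKM in Con-labelled embryos (log2 change -1.78 ± 0.40 (SE), adjusted p = 0.216 by limma), so the Con-labelled libraries themselves differed more than 2-fold. Pou5f1, the gene of OCT4, had 91.5 and 98.7 FPKM, against 132 and 117 FPKM, and Klf5 overlapped at 136 and 122 FPKM, against 140 and 135 FPKM. Dppa5a, an RNA-binding pluripotency marker chosen after its values were seen, had 3915 and 4567 FPKM in KO-labelled embryos, against 2477 and 1529 FPKM in Con-labelled embryos. Among 24 tested genes of trophectoderm, Hippo signalling and polarity, 5 were higher and 6 lower. Cdx2, the trophectoderm regulator, had 6.08 and 1.45 FPKM in KO-labelled embryos, against 6.90 and 7.54 FPKM in Con-labelled embryos, and its activator Tead4 had 48.4 and 30.2 FPKM, against 67.3 and 53.1 FPKM. Tfap2c pointed the other way with 74.0 and 69.7 FPKM in KO-labelled embryos, against 57.8 and 47.2 FPKM in Con-labelled embryos, and Gata3 overlapped at 142 and 138 FPKM, against 114 and 158 FPKM. Of the 3 tested genes of the hypoblast list, 2 were higher and 1 lower. The regulator gene Gata6 had 37.3 and 33.6 FPKM in KO-labelled embryos, against 25.5 and 23.2 FPKM in Con-labelled embryos, and the endocytic receptor gene Lrp2 had 23.7 and 22.1 FPKM, against 6.03 and 15.5 FPKM. The related factor gene Gata4 was lower at 2.08 and 5.70 FPKM, against 8.47 and 7.83 FPKM (log2 change -1.01, adjusted p = 0.382 by limma).

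Genes of the DNA methylation machinery were higher in KO-labelled embryos in 10 of 17 measured cases and lower in 1 (58.8% and 5.88%). Of the 12 tested, 6 were higher and 1 lower (50% and 8.33%), against 18.7% and 27.3% of all tested genes. Dnmt3l, the cofactor of the de novo methyltransferases, had 56.7 and 80.1 FPKM in KO-labelled embryos, against 23.5 and 35.9 FPKM in Con-labelled embryos (log2 change 1.18 ± 0.29 (SE), adjusted p = 0.229 by limma). The maintenance methyltransferase gene Dnmt1 had 4.13 and 3.91 FPKM, against 0.610 and 3.39 FPKM, so the gap rested on Con replicate 1, and the de novo methyltransferase gene Dnmt3b had 9.12 and 5.64 FPKM, against 5.19 and 4.11 FPKM. Dnmt3a overlapped at 5.38 and 9.17 FPKM in KO-labelled embryos, against 6.06 and 9.20 FPKM in Con-labelled embryos. Zfp57, which protects methylated imprints after fertilisation and was chosen after its values were seen, was the 1 lower member with 3.75 and 5.06 FPKM, against 9.28 and 7.99 FPKM (log2 change -0.84, adjusted p = 0.363 by limma).

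Among enzymes and readers of H3K36 methylation, 4 of 18 tested genes were higher and 7 lower in KO-labelled embryos. Nsd1, which places the dimethyl mark, had 8.91 and 6.89 FPKM in KO-labelled embryos, against 3.32 and 6.38 FPKM in Con-labelled embryos, while Ash1l and Whsc1l1, related methyltransferases, overlapped. In the Polycomb list 3 of 15 were higher and 5 lower. Besides Kdm6b, Suz12 of the H3K27 methyltransferase complex was higher, with 58.5 and 54.0 FPKM against 40.8 and 31.3 FPKM (log2 change 0.64, adjusted p = 0.328 by limma). Its partner Eed was lower at 112 and 110 FPKM in KO-labelled embryos, against 148 and 135 FPKM in Con-labelled embryos, the ubiquitin ligase gene Rnf2 was lower at 55.5 and 52.8 FPKM, against 70.7 and 74.0 FPKM, and the catalytic subunit gene Ezh2 overlapped. The lists for H3K4 methylation, with 3 of 15 higher and 2 lower, and for H3K9 methylation, with 3 of 13 higher and 3 lower, lay near the shares of all genes.

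Most genes of cytosolic ribosomal proteins were higher in KO-labelled embryos. Of 77 tested, 59 were higher in KO-labelled embryos and 2 lower (76.6% and 2.60%), against 18.7% and 27.3% of all tested genes. Their median log2 change was 0.47, and none was called. Their summed level was 38140 and 47633 FPKM in KO-labelled libraries, against 30130 and 34192 FPKM in Con-labelled libraries. Rps21, chosen after its values were seen, had 926 and 1147 FPKM in KO-labelled embryos, against 449 and 508 FPKM in Con-labelled embryos (log2 change 1.11 ± 0.18 (SE), adjusted p = 0.141 by limma). Rplp0, of the ribosomal stalk, had 875 and 841 FPKM, against 712 and 698 FPKM, and Rpl5 overlapped at 208 and 183 FPKM, against 197 and 187 FPKM. Ribosomal protein transcripts are short, with a median length of 1094 nt against 3053 nt over all tested genes. Each gene was given its longest annotated transcript, which may not be the one measured. Split by length into 4 equal bins, all tested genes had a median log2 change of -0.02 in the bin of the shortest and of -0.12, -0.14 and -0.03 in the longer ones. In the bin of the shortest, 23.2% were higher and 24.2% lower. Many ribosomal protein genes have processed pseudogenes that could share their reads.

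Genes of oxidative phosphorylation were higher in 24 and lower in 8 of 77 tested cases (31.2% and 10.4%), against 18.7% and 27.3% of all tested genes. Their median log2 change was 0.21, or 0.072 without KO replicate 2 and 0.081 without Con replicate 1. Atp5e, the epsilon subunit of ATP synthase, had 246 and 324 FPKM in KO-labelled embryos, against 65.7 and 102 FPKM in Con-labelled embryos (3.41-fold, log2 change 1.78, adjusted p = 0.127 by limma). The cytochrome oxidase subunit gene Cox8a had 1045 and 1027 FPKM, against 553 and 868 FPKM, and the complex III gene Uqcrc1 was lower at 163 and 173 FPKM in KO-labelled embryos, against 199 and 217 FPKM in Con-labelled embryos. In glycolysis and pyruvate metabolism 6 of 20 were higher and 3 lower. Hexokinase 2, Hk2, chosen after its values were seen, had 21.9 and 18.9 FPKM in KO-labelled embryos, against 6.23 and 3.46 FPKM in Con-labelled embryos (log2 change 1.91, adjusted p = 0.159 by limma).

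DNA replication genes leaned the other way. Of 41 tested, 2 were higher and 20 lower in KO-labelled embryos (4.88% and 48.8%), against 18.7% and 27.3% of all tested genes. Their median log2 change was -0.24, against -0.07 over all tested genes. Mcm5, of the replicative helicase, had 32.4 and 34.5 FPKM in KO-labelled embryos, against 46.5 and 44.7 FPKM in Con-labelled embryos (log2 change -0.43, adjusted p = 0.428 by limma). The licensing factor gene Cdt1 had 46.6 and 40.8 FPKM, against 60.9 and 57.6 FPKM, and Mcm2 had 37.3 and 35.1 FPKM, against 45.6 and 43.9 FPKM, while the sliding clamp gene Pcna overlapped. DNA repair had 4 of 36 higher and 15 lower (11.1% and 41.7%), with a median log2 change of -0.23, or -0.14 without KO replicate 2. Ribosome biogenesis had 5 of 40 higher and 17 lower (12.5% and 42.5%), with a median of -0.14, or -0.22 without Con replicate 2. Splicing had 7 of 39 higher and 15 lower (17.9% and 38.5%), with the share higher near that of all tested genes. Its median of -0.04 was 0.047 with median-ratio scaling. Among 29 tested cell cycle genes 5 were higher and 10 lower (17.2% and 34.5%), against 18.7% and 27.3% of all tested genes. Their median log2 change was -0.34, or -0.15 without KO replicate 1 and -0.16 without Con replicate 2. Ccnb1, the mitotic cyclin B1, had 185 and 172 FPKM in KO-labelled embryos, against 251 and 257 FPKM in Con-labelled embryos (log2 change -0.51, adjusted p = 0.312 by limma), cyclin A2, Ccna2, had 140 and 177 FPKM, against 190 and 280 FPKM, and cyclin E1, Ccne1, was higher at 250 and 196 FPKM, against 193 and 191 FPKM.

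Stress and p53 lists had counts in both directions. Of 23 tested stress genes, 7 were higher and 6 lower, and of 23 genes of the p53 response and apoptosis, 6 were higher and 4 lower. Chosen after their values were seen, the mitochondrial chaperonin gene Hspe1 had 131 and 228 FPKM in KO-labelled embryos, against 56.3 and 66.2 FPKM in Con-labelled embryos (log2 change 1.49, adjusted p = 0.159 by limma). The endoplasmic reticulum chaperone gene Hspa5 had 113 and 104 FPKM, against 376 and 219 FPKM (log2 change -1.40, adjusted p = 0.159 by limma). Trp53 had 52.7 and 56.5 FPKM in KO-labelled embryos, against 55.0 and 74.5 FPKM in Con-labelled embryos, and its target Cdkn1a had 103 and 125 FPKM, against 98.1 and 199 FPKM, both overlapping. The proteasome list, with 7 of 32 higher and 10 lower, lay near all genes.

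**Figure D4:**
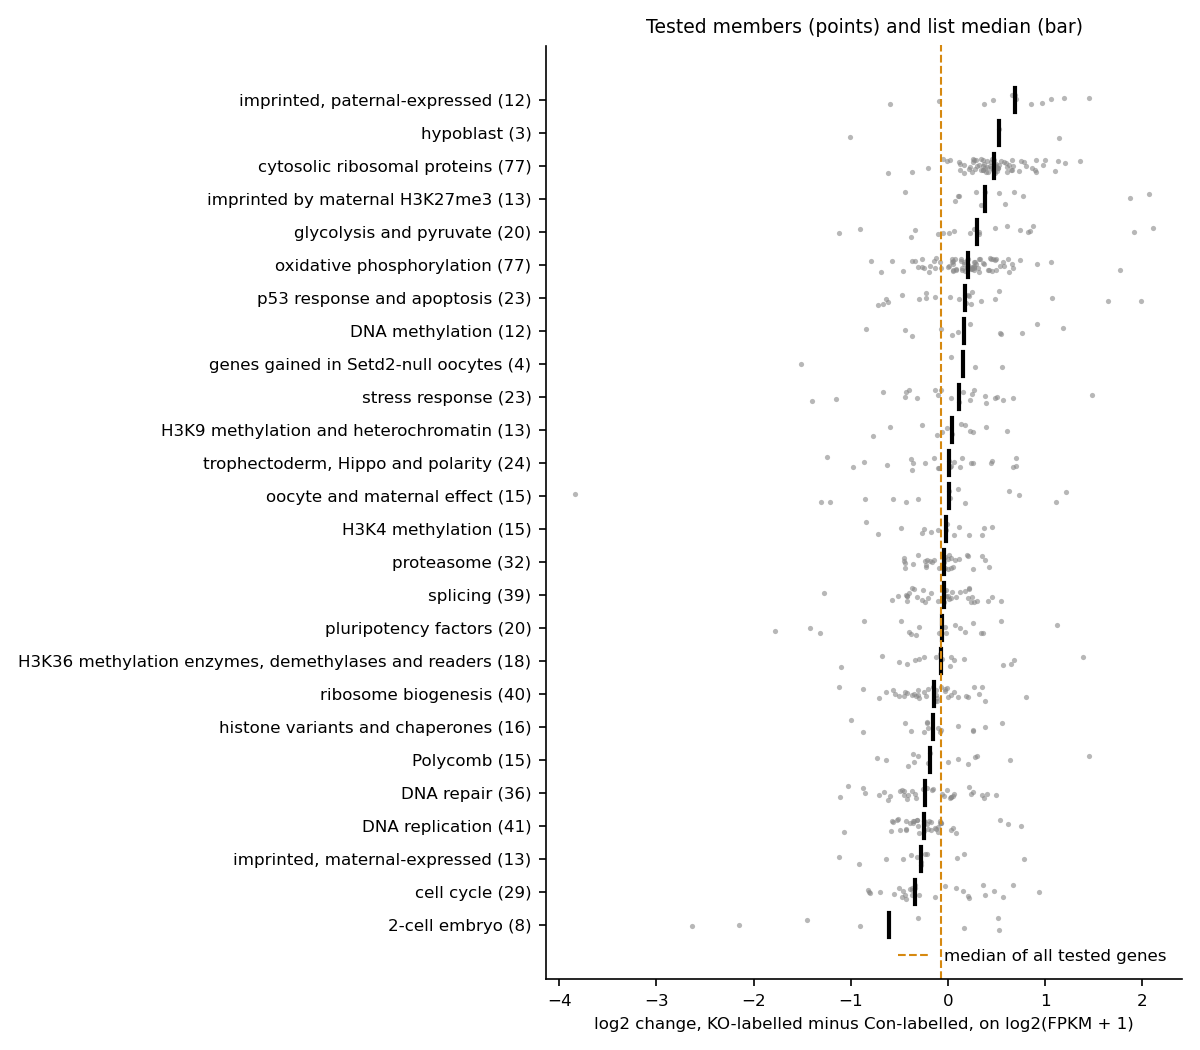
Log2 change, KO-labelled minus Con-labelled, of every tested member of each gene list (points, jittered vertically) with the list's median (black bar), the median of all tested genes (dashed line, -0.07) and the number of members in brackets. Medians run from 0.69 for paternally expressed imprinted genes to -0.60 for genes of the 2-cell stage. Ribosomal proteins at 0.47 and DNA replication at -0.24 lie between, and no member passed the test.

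Genes known from the oocyte showed no common direction in KO-labelled embryos. Of 15 tested oocyte and maternal effect genes, 2 were higher and 4 lower, and 17 of the 32 measured were below the filter. Zp3, a zona pellucida protein gene, had 46.0 and 53.7 FPKM in KO-labelled embryos, against 20.9 and 20.9 FPKM in Con-labelled embryos (log2 change 1.21 ± 0.23 (SE), adjusted p = 0.159 by limma). Omt2a, described above, was the reverse. The secreted oocyte protein gene Oosp1 was listed at 0 in both KO-labelled libraries, against 1.41 and 1.24 FPKM in Con-labelled ones. Of 8 tested genes of the 2-cell stage, 1 was higher and 4 lower. Their median log2 change was -0.60, or -1.33 without Con replicate 1 and 0.056 without Con replicate 2. Zfp352 overlapped, with 13.1 and 1.15 FPKM in KO-labelled embryos, against 1.38 and 43.3 FPKM in Con-labelled embryos.

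The genes called in the Setd2 knockout at earlier stages were then followed into the 8-cell embryos. These stages were full-grown oocytes and zygotes from 8-week-old females and growing oocytes of postnatal day 7, 2 libraries a group, and limma called 2.02% and 4.89% of 12199 genes higher and lower in knockout full-grown oocytes, and 18.5% and 13.1% in knockout zygotes. Of the 247 genes higher in knockout full-grown oocytes, 129 were tested at the 8-cell stage, where 18.6% were higher and 27.1% lower in KO-labelled embryos. Of the 597 genes lower in those oocytes, 416 were tested, where 18.0% were higher and 29.8% lower. For zygotes, 1795 of 2255 genes that were higher in the knockout had 20.6% higher and 28.4% lower at the 8-cell stage, and 970 of 1595 lower genes had 19% higher and 26.1% lower. All of these lie near the 18.7% and 27.3% of all tested genes. In growing oocytes only 8 genes were called higher (0.0741%) and 1 lower (0.00926%).

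Single genes show how far these differences carried. Hormad1, a meiotic chromosome axis gene chosen after its values were seen, had 0.314 and 0.111 FPKM in knockout full-grown oocytes, against 22.8 and 14.9 FPKM in controls, and 0.203 and 0 FPKM in knockout zygotes, against 11.8 and 15.1 FPKM. In 8-cell embryos it had 43.4 and 85.5 FPKM in KO-labelled libraries, against 38.4 and 75.0 FPKM in Con-labelled libraries, with a log2 change of 0.18 ± 0.40 (SE). Of 10 genes gained in Setd2-null oocytes, a list chosen on earlier samples of this study, 6 were below the filter, 1 was higher, 1 was lower and 2 overlapped. Dcpp1, a salivary protein gene with 24.3 and 20.1 FPKM in knockout full-grown oocytes, against 0.153 and 0.167 FPKM in controls, was listed at 0 in all 4 libraries of 8-cell embryos. Prpf39, a splicing factor gene with 45.9 and 40.8 FPKM in knockout full-grown oocytes, against 4.15 and 3.38 FPKM in controls, had 15.5 and 18.1 FPKM in KO-labelled 8-cell embryos, against 15.7 and 17.0 FPKM in Con-labelled ones. Cpox, of heme synthesis, was the higher member with 5.97 and 6.20 FPKM in KO-labelled embryos, against 4.21 and 3.47 FPKM in Con-labelled embryos (log2 change 0.55, adjusted p = 0.521 by limma). Amd2, a copy of the polyamine synthesis gene Amd1 that may share its reads, was the lower member with 39.6 and 29.5 FPKM, against 166 and 59.7 FPKM (log2 change -1.51, adjusted p = 0.279 by limma), and the heparanase gene Hpse overlapped.

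Mcts2 had the same direction earlier. Zygotes had 7.18 and 5.71 FPKM in the knockout, against 0 and 0.982 FPKM in controls (log2 change 2.40 ± 0.53 (SE), adjusted p = 0.00664 by limma), and full-grown oocytes had 6.03 and 8.23 FPKM, against 2.53 and 1.71 FPKM (adjusted p = 0.137 by limma). Omt2a was lower in knockout zygotes too, at 1755 and 1045 FPKM, against 2921 and 2803 FPKM in controls (log2 change -1.08, adjusted p = 0.00757 by limma), but not in full-grown oocytes, which had 1153 and 878 FPKM, against 981 and 962 FPKM. The tables were normalised separately and the transfer embryos share no library with the other stages, so these values stand side by side without a test across them.

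**Figure D5:**
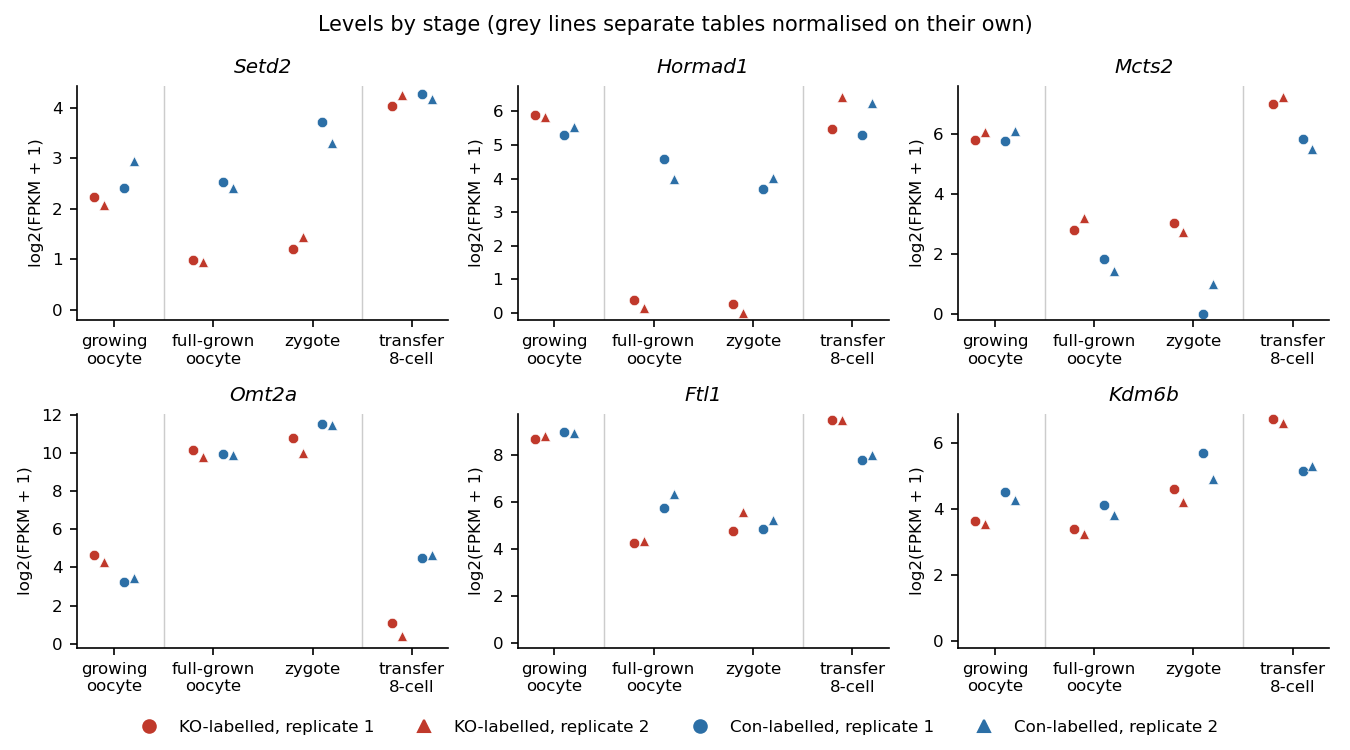
Levels of 6 genes on a log2(FPKM + 1) axis in growing oocytes, full-grown oocytes, zygotes and spindle-transfer 8-cell embryos; red points (left) are knockout or KO-labelled and blue points Con libraries, circles replicate 1 and triangles replicate 2, and grey lines separate tables normalised on their own. Setd2 and Hormad1 separate the groups in full-grown oocytes and zygotes and overlap at the 8-cell stage, where Omt2a has 1.14 and 0.324 FPKM against 21.7 and 24.5 FPKM.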

How the data were processed

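The authors deposited FPKM values for 22592 gene symbols, with columns named by group and replicate. Libraries were made by the Smart-seq2 protocol per the labels, and mm9, Cufflinks 2.0.2 and TopHat2 2.0.11 are listed in the submitters' processing notes with no role for each; annotation, strand and filters are not given in the sources used here. Genes at 1 FPKM or more in at least 2 of the 4 libraries were tested on log2(FPKM + 1) with limma 3.58.1 in R 4.3.3 (group means, variances moderated with a trend on mean, two-sided, Benjamini-Hochberg over 9398 genes, threshold 0.05), after the code was tested on simulated data. Log2 changes on this scale understate the change of low genes. Full-grown oocytes and zygotes were fitted together with 48 h embryos in their table of 12199 tested genes and growing oocytes in theirs. The Dnmt3l pair was not used here.

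Genes were named by a rule: Setd2, the 12 smallest p in each direction among non-overlapping genes that average 5 FPKM or more where they are higher, the first 4 measured genes of each list, and imprinted genes. Symbols without an established name were left out. A gene that met the rule is not reported here. The members and lists were chosen with earlier results of these data known. Transcript lengths (the longest annotated transcript of each gene) and chromosomes came from GENCODE by symbol for 9293 of 9398 genes. Depth was estimated from single-transcript genes of at least 800 nt, with 200 nt taken off the length; 65.3% to 67.1% of their low values came within 0.1 of a whole fragment, so no count test was run. The deviations of same-numbered libraries from their group means correlated at 0.0724 over only 2 pairs, and the numbers were not used as pairs. Alternatives changed the pseudocount, filter, scaling, variance model, block and libraries.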

Additional observations from a re-analysis of the deposited data

Results flagged for a closer look

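14 genes named above were called by limma in the knockout at an earlier stage in one direction and lay in the other direction, without overlap of the groups, at the 8-cell stage. They were picked by that rule, and named genes that kept their direction, such as Mcts2, Omt2a and Dppa5a, are not counted. Over all genes called in full-grown oocytes or zygotes, the shares higher and lower at the 8-cell stage lay near those of all tested genes. The stages stand in tables normalised separately, so the difference between them was not tested, and no 8-cell value passed its own test.

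In full-grown oocytes, Ftl1 had 18.0 and 19.3 FPKM in the knockout, against 52.8 and 78.7 FPKM in controls (log2 change -1.74, adjusted p = 0.0108 by limma), beside a log2 change of 1.60 at the 8-cell stage. Dnmt1 had 55.2 and 73.9 FPKM, against 111 and 149 FPKM (adjusted p = 0.0368 by limma), beside 0.92 at the 8-cell stage, which was 0.19 without Con replicate 1. Cox8a had 284 and 286 FPKM, against 477 and 675 FPKM (adjusted p = 0.0187 by limma), beside 0.58, or 0.26 without Con replicate 1, and it was lower in knockout zygotes too. Ccnb1 had 688 and 699 FPKM, against 403 and 316 FPKM (adjusted p = 0.0446 by limma), beside -0.51, and it was higher in knockout zygotes too. Amd2 had 12.5 and 48.4 FPKM, against less than 0.02 FPKM in both controls (adjusted p = 0.00104 by limma), beside -1.51, or -0.79 without Con replicate 1.

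In zygotes, Kdm6b had 23.4 and 17.5 FPKM in the knockout, against 50.6 and 29.3 FPKM in controls (log2 change -0.90, adjusted p = 0.0359 by limma), beside a log2 change of 1.45 at the 8-cell stage. Other genes of chromatin were Suz12 with 19.2 and 15.6 FPKM, against 85.9 and 44.5 FPKM, beside 0.64, and Rnf2 with 120 and 90.1 FPKM, against 56.5 and 59.1 FPKM, beside -0.41. Nsd1 had 8.34 and 6.18 FPKM in knockout zygotes, against 17.2 and 16.1 FPKM in controls, beside 0.65, or 0.26 without Con replicate 1. Of the histone genes, H2afx had 589 and 572 FPKM, against 25.9 and 34.9 FPKM (log2 change 4.23), beside -0.87, and Hist1h2bc had 91.7 and 181 FPKM, against 14.5 and 14.7 FPKM, beside -3.26. Tssc4 had 17.9 and 16.9 FPKM in knockout zygotes, against 8.36 and 3.63 FPKM in controls, beside -0.92, Tfap2c had 13.8 and 13.3 FPKM, against 29.0 and 22.1 FPKM, beside 0.45, and Uqcrc1 had 21.0 and 41.7 FPKM, against 1.08 and 1.00 FPKM, beside -0.30.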

How the results depend on the processing

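Under another pseudocount, filter, scaling, variance trend or robust moderation, limma called 0 genes, as in the reported fit. With the replicate number as a block it called 15 (12 higher and 3 lower in KO-labelled embryos), 7 of them genes of the naming rule and 3 of them list members, and Ftl1, Atp5e and Omt2a shared an adjusted p of 0.0331. Without 1 library the count ran from 0 to 1; the 1 gene, Bex1, was called without Con replicate 1, with the lone library taken to vary like the other group. Setd2, at -0.08, changed sign with median-ratio scaling (0.00617) and quantile normalization (0.042) and ran from -0.19 to 0.031 without 1 library; the cause was not tested. The median of genes imprinted by maternal H3K27me3 was 0.64 with a pseudocount of 0.1, 0.64 with a filter at 5 FPKM and 0.46 with quantile normalization, and that of DNA replication genes was -0.14 with quantile normalization. Without 1 library, medians ran from 0.39 to 0.97 for paternally expressed imprinted genes, from -0.52 to -0.041 for maternally expressed ones, and from 0.15 to 0.46 for those of H3K27me3. Over all genes the median was 0.00102 with median-ratio scaling and -0.00572 with quantile normalization. Changes of overlapping genes reversed: Cd81 to 0.72 with a pseudocount of 0.1, Dnmt3a to 0.00369 and 0.027 and Whsc1l1 to 0.010 and 0.030 with median-ratio scaling and quantile normalization, and Sgce to 0.000799 with quantile normalization. Leaving out 1 library also turned the log2 change of 24 genes named above, none past the test, with ranges in Ash1l (-0.36 to 0.41), Cd81 (-2.78 to 2.23), Cdkn1a (-0.80 to 0.21), Cdkn1c (-2.31 to 0.078), Ddx3y (-1.32 to 3.65), Dnmt3a (-0.41 to 0.26), Eif2s3y (-0.83 to 3.88), Ezh2 (-0.53 to 0.15), Gab1 (-0.94 to 0.066), Gata3 (-0.17 to 0.30), H13 (-0.64 to 0.16), Hormad1 (-0.30 to 0.66), Mcts1 (-0.82 to 0.84), Mkrn3 (-1.25 to 0.060), Pcna (-0.21 to 0.00546), Phlda2 (-1.41 to 0.14), Prpf39 (-0.067 to 0.14), Rpl5 (-0.065 to 0.11), Sfmbt2 (-0.14 to 0.37), Sgce (-0.47 to 0.28), Slc38a4 (-0.74 to 0.94), Ube3a (-0.60 to 0.16), Whsc1l1 (-0.40 to 0.27), Zfp352 (-3.01 to 1.21).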

Other observations

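Further genes, chosen after their values were seen, had groups that did not overlap. Triosephosphate isomerase, Tpi1, a glycolytic enzyme, had 13.6 and 8.78 FPKM in KO-labelled embryos, against 1.61 and 1.93 FPKM in Con-labelled embryos (log2 change 2.11 ± 0.38 (SE), adjusted p = 0.159 by limma). The ribosomal protein gene Rps28 had 73.6 and 95.8 FPKM, against 38.5 and 37.2 FPKM. Of genes imprinted by maternal H3K27me3, the glutamine transporter gene Slc38a1 had 2.02 and 1.47 FPKM in KO-labelled embryos, against 1.12 and 0.201 FPKM in Con-labelled embryos. Trappc9, a maternally expressed imprinted gene of vesicle transport, was lower at 0.783 and 0.654 FPKM, against 1.06 and 1.41 FPKM. Dppa5a was higher in knockout zygotes too, at 252 and 397 FPKM, against 82.1 and 62.0 FPKM in controls (log2 change 2.13, adjusted p = 0.000343 by limma).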
